A study of Mus musculus with 9 samples.

Results

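The rod phototransduction cascade was examined here through 9 genes: the 3 subunits of rod transducin (Gnat1, Gnb1 and Gngt1), the 3 subunits of the rod cGMP phosphodiesterase (Pde6a, Pde6b and Pde6g), both subunits of the rod cyclic nucleotide-gated channel (Cnga1 and Cngb1) and the sodium/calcium-potassium exchanger of the outer segment (Slc24a1). Probes were matched to them by gene symbol, and all 9 were found among the 31829 gene names of the array, on 11 of its 39429 probes. Gnb1 and Cngb1 have 2 probes each, and the brighter one over all arrays was reported. The microarray study compared the retinal pigment epithelium (RPE) with the layers on either side of it, the choroid (CH) and the photoreceptors (PR), to find the genes that are particular to the RPE. All 3 tissues came from healthy female C57BL/6 mice (J strain), and there were 3 arrays per tissue. The labels give the age of the mice as 6 months (± 2 weeks), whereas the published study states a somewhat younger age. Each sample was cut out of frozen sections of a single eye with a laser, and none carried a mutation, transgene or treatment. Thicker sections were cut for the PR than for the RPE and the CH, the PR cells were located with a Cresyl Violet stain, and the RPE was removed before the CH was taken. Tissue RNA was amplified, labelled with Cy5 and hybridised on dual-colour Agilent arrays against a common reference of mouse RPE/choroid RNA labelled with Cy3. The main value for a probe is its log2 ratio of Cy5 to Cy3, so that 0 means as much signal as from the reference and 1 a doubled ratio.

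In a rod, the light-activated receptor loads transducin with GTP. The freed alpha subunit of transducin lifts the inhibitory gamma subunit off the phosphodiesterase, cGMP is broken down, the cGMP-gated channels in the plasma membrane close and the cell hyperpolarises. The exchanger meanwhile goes on pumping calcium out, and the fall in calcium starts the recovery. Rods are by far the most numerous cells of the mouse photoreceptor layer, and the genes of this cascade are standard markers for them. The RPE and the choroid have no phototransduction of this kind, but the RPE lies against the rod outer segments and takes up the tips they shed.

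The tissue labels were set against marker genes first. All 7 rod markers and all 5 cone markers were called higher in the PR than in either other tissue. The mean log2 ratio of the rod markers was 3.59 to 3.79 in the PR, -0.39 to 0.50 in the RPE and -1.08 to -0.16 in the CH, and their summed Cy5 signal was 3262898 to 3913997, 1574639 to 1981871 and 1145060 to 1816382. RPE markers were highest on the RPE arrays (mean log2 ratio 1.79 to 2.18, against 0.20 to 1.09 in the CH and -2.79 to -2.64 in the PR), and fibroblast markers were highest on the CH arrays (1.29 to 1.74, against -1.29 to -0.94 in the RPE and -5.03 to -4.41 in the PR). Of the RPE markers only Best1 was not well above background on the arrays. Endothelial markers did not separate RPE (1.04 to 1.21) from CH (0.75 to 1.47). The lens genes ranged from -3.17 on CH array 3 to 3.91 on RPE array 3, and no lens gene was called between tissues. Pigment cell markers were higher in the CH (1.29 to 1.41) than in the RPE (-0.50 to 0.06). Of 8 markers of bipolar and other inner retina cells, 2 were called higher and 2 lower in the PR than in the RPE. Thus the rod, cone, RPE and fibroblast markers went with the labels on all 9 arrays. Rod markers were not absent from the RPE and the CH, however: all 7 were well above background on each of the RPE and CH arrays. RPE array 2 stood apart in that 91.6% of its probes were well above background, against 62.0 to 71.2% on the other arrays. Without it the calls for the cascade genes did not change.

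The PR had higher levels of all 9 cascade genes than either neighbouring tissue. A gene was called when its fold change was above 2.5 and its adjusted p in the limma fit (Benjamini-Hochberg, over all probes) was below 0.01. By that rule 9 of 9 were called against each tissue, where of all genes 5.25% were called higher in PR than in RPE and 6.1% higher in PR than in CH. The Cy5 spots of Gnat1, Gngt1 and Pde6g were saturated on all 3 PR arrays and those of Gnb1, Pde6a and Cnga1 on PR array 3, so that the PR values and differences of these 6 genes are capped and no order among them is read here. With those capped values, the median difference of the 9 genes was 3.28 on the log2 scale between PR and RPE, with a range of 1.82 to 4.68, against a median of 0.01 over all genes. Between PR and CH it was 3.86 with a range of 3.03 to 5.10, against 0.05 over all genes. In the Cy5 channel alone the median was smaller, 1.49 over the RPE and 1.98 over the CH. The Cy3 signal of most of these genes was lower on the PR arrays, as described below. For each of the 9 genes, the lowest PR array was above the highest RPE array and above the highest CH array, which held for 24.9% of all genes. Since these are dissected tissues, more rods in a sample and more RNA of these genes per rod cannot be told apart.

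**Figure D1:**
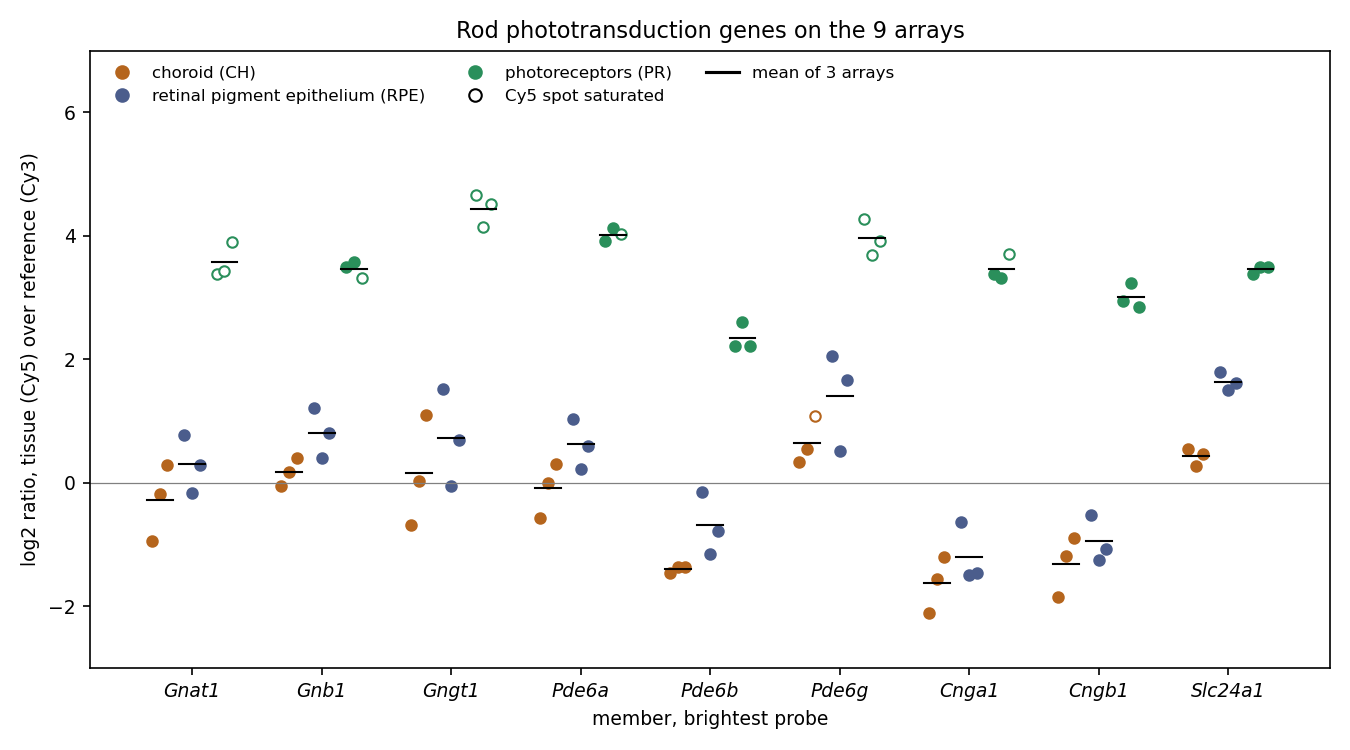
Log2 ratio of tissue (Cy5) over common reference (Cy3) for the 9 cascade genes, with a point for each array (choroid, RPE and photoreceptors, 3 arrays each), a black line for the mean and open circles where the Cy5 spot was saturated. In every gene the 3 photoreceptor arrays lie above all other arrays, and only Slc24a1 and Pde6b have all RPE arrays above all choroid arrays.

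Transducin relays the signal from the receptor to the phosphodiesterase. Gnat1, its GTP-binding alpha subunit (probe at chr9:107577023-107577082, minus strand, mm9), had log2 ratios of 3.39, 3.43 and 3.90 on PR arrays 1 to 3, of 0.78, -0.17 and 0.29 in the RPE and of -0.94, -0.19 and 0.29 in the CH. The PR arrays stood clear of the other 6, whose values overlapped. The measured differences, with all PR spots at the ceiling, were 3.28 ± 0.32 (SE) for PR over RPE (limma, adjusted p = 1.52e-05) and 3.86 ± 0.32 for PR over CH (adjusted p = 3.86e-06). Gngt1, the rod gamma subunit (chr6:3946662-3946721, plus strand), had 4.66, 4.14 and 4.52 in the PR, 1.52, -0.06 and 0.70 in the RPE and -0.68, 0.03 and 1.10 in the CH. It was the transducin gene with the widest spread between arrays of one tissue (SD 0.90 in the CH and 0.79 in the RPE, n = 3). Its PR over RPE difference of 3.72 ± 0.47, capped like that of Gnat1, had an adjusted p of 8.76e-05. In Cy5 alone, with the same cap, the PR over RPE differences were 0.97 ± 0.26 for Gngt1 and 0.90 ± 0.26 for Gnat1. Neither was called in that channel. Gnb1, the beta subunit, which many other cell types use as well (chr4:154931606-154931665, plus strand), had 3.50, 3.58 and 3.32 in the PR, 1.21, 0.40 and 0.80 in the RPE and -0.05, 0.18 and 0.40 in the CH. Its differences were 2.66 ± 0.20 for PR over RPE (adjusted p = 2.05e-06) and 3.29 ± 0.20 for PR over CH (adjusted p = 3.83e-07). The second Gnb1 probe lies about a kilobase away (chr4:154932824-154932883) and gave 2.26 ± 0.27 and 2.99 ± 0.27, also called in both comparisons.

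The phosphodiesterase breaks down cGMP. Pde6a, its catalytic alpha subunit (chromosome 18), had log2 ratios of 3.92, 4.12 and 4.03 in the PR, 1.04, 0.22 and 0.60 in the RPE and -0.57, -0.00 and 0.30 in the CH. Its PR values were tightly grouped (SD 0.10, n = 3), and the differences were 3.40 ± 0.24 over the RPE (adjusted p = 1.56e-06) and 4.12 ± 0.24 over the CH (adjusted p = 3.29e-07). Pde6b, the catalytic beta subunit (chr5:108856144-108856203, plus strand), had 2.22, 2.60 and 2.21 in the PR, -0.15, -1.16 and -0.78 in the RPE and -1.47, -1.36 and -1.36 in the CH. The differences were 3.04 ± 0.22 and 3.74 ± 0.22 (adjusted p = 1.99e-06 and 3.77e-07). Pde6g, the small subunit that holds the enzyme inactive in the dark (chr11:120308924-120308983, minus strand), had 4.27, 3.69 and 3.91 in the PR, 2.06, 0.52 and 1.66 in the RPE and 0.33, 0.54 and 1.08 in the CH. Its PR over RPE difference of 2.54 ± 0.36 (adjusted p = 0.000201) is capped as well. In Cy5 alone, with the same cap, that difference was 0.53 ± 0.22 and was not called.

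The channel carries the dark current, and the Cy5/Cy3 ratios of both of its genes were more than 10-fold higher in the PR at their reported probes. In Cy5 alone the PR over RPE differences were smaller, 6.79-fold for Cnga1 and 7.61-fold for Cngb1. Cnga1, the subunit that forms the rod channel with Cngb1 (chr5:72994946-72995005, minus strand), had log2 ratios of 3.39, 3.32 and 3.71 in the PR, -0.64, -1.50 and -1.47 in the RPE and -2.11, -1.56 and -1.20 in the CH. This is a difference of 4.68 ± 0.27 over the RPE (25.6-fold, adjusted p = 4.31e-07) and of 5.10 ± 0.27 over the CH (34.2-fold, adjusted p = 1.84e-07). Cngb1, the modulatory subunit (chr8:97762945-97763004, minus strand), had 2.94, 3.23 and 2.85 in the PR, -0.52, -1.25 and -1.08 in the RPE and -1.86, -1.18 and -0.90 in the CH, a difference of 3.96 ± 0.26 over the RPE (15.5-fold, adjusted p = 8.61e-07). The second Cngb1 probe (chr8:97764887-97764946) disagreed in size. Its log2 ratios were 0.93, 1.86 and 1.15 in the PR, 0.35, -0.06 and 0.23 in the RPE and 0.05, -0.22 and 0.01 in the CH. The difference over the RPE was 1.14 ± 0.22 (adjusted p = 0.00156), below the fold change needed for a call, and over the CH 1.37 ± 0.22, which was called. It was a dim probe, with a mean Cy5 signal of 2837 to 4825 in the PR against 248180 to 304127 at the reported probe.

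Slc24a1, the exchanger that removes calcium from the outer segment (chr9:64771225-64771284, minus strand), lay between both neighbours in the RPE. Its log2 ratios were 3.38, 3.50 and 3.49 in the PR, 1.79, 1.50 and 1.61 in the RPE and 0.54, 0.27 and 0.47 in the CH. The 3 tissues formed 3 steps without overlap, and the spread within each was small (SD 0.07, 0.15 and 0.14, n = 3). The difference was 1.82 ± 0.11 for PR over RPE (3.54-fold, adjusted p = 4.99e-07) and 3.03 ± 0.11 for PR over CH (8.17-fold, adjusted p = 1.46e-08).

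The saturated spots limit the upper end of these values. Besides the PR spots named above, Pde6g was saturated on CH array 3. Only Pde6b, Cngb1 and Slc24a1 had no saturated spot on any array. For a spot at the ceiling in all PR arrays only a lower limit can be given, from the mean Cy5 signals after normalization between arrays. It is a limit as far as the ceiling goes: it takes no account of the spread between arrays and depends on the normalization. None of the Cy5 differences behind the limits given here was called. For Gnat1 the limits were at least 1.87-fold over RPE and at least 2.22-fold over CH. For Gngt1 the limits were at least 1.96-fold and at least 2.15-fold. For Pde6g the limit over RPE was at least 1.45-fold, and no limit can be given against the CH, where a spot was saturated. The probes of Gngt1 and Pde6b are shown here as the sequences that were read at the ceiling and below it on the PR arrays (5′ to 3′, as on the array, no base marked).
Gngt1 probe: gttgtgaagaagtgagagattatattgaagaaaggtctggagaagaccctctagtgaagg
Pde6b probe: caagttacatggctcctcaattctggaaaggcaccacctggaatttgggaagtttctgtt

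The 2 channels did not contribute alike to these ratios. Although the Cy3 reference was the same on all arrays, the Cy3 signal of most cascade spots was lower on the PR arrays. At Gnat1 the mean Cy3 signal was 30667, 33793 and 11915 on PR arrays 1 to 3, against 79376, 136837 and 96118 on the RPE arrays and 131865, 124742 and 82928 on the CH arrays. At Gngt1 it was 13040, 20916 and 7933 in the PR against 51660, 110452 and 74018 in the RPE. Slc24a1 did not share this: its Cy3 signal was 10903, 9295 and 7519 in the PR and 9786, 11169 and 10557 in the RPE. In a limma fit of the normalized log2 Cy3 signal by itself, chosen after seeing the data, the PR minus RPE difference of the 9 genes had a median of -1.91 and ran from -2.75 ± 0.38 for Gngt1 to -0.14 ± 0.11 for Slc24a1, against a median of 0.10 over all genes. Cnga1 (-1.92 ± 0.16, adjusted p = 0.00394) and Pde6a (-1.91 ± 0.20, adjusted p = 0.00996) were called lower in Cy3 on the PR than on the RPE arrays, 2 of 9 where 0.0283% of all genes were. Against the CH arrays Gnb1 was called as well, 3 of 9 where 0.0408% of all genes were.

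The Cy5 channel carries the tissue RNA, but its values were normalized together with Cy3 and so are not independent of the reference. In Cy5 alone the PR over RPE differences of the 9 genes were smaller, with a median of 1.49 on the log2 scale. They were 2.93 ± 0.31 for Cngb1 (7.61-fold), 2.76 ± 0.27 for Cnga1 (6.79-fold), 2.47 ± 0.30 for Pde6b (5.52-fold) and 1.68 ± 0.14 for Slc24a1 (3.21-fold). These 4 genes had the lowest Cy5 signals of the 9 on the RPE arrays. Pde6a reached 1.49 ± 0.22 and Gnb1 1.34 ± 0.18, each with 1 saturated PR spot, and all 6 were still called. Gngt1 (0.97 ± 0.26, adjusted p = 0.0161), Gnat1 (0.90 ± 0.26, adjusted p = 0.0251) and Pde6g (0.53 ± 0.22, adjusted p = 0.0972), were not called in Cy5 alone, nor against the CH (1.11 ± 0.26, 1.15 ± 0.26 and 0.71 ± 0.22). All 3 were at the Cy5 ceiling on all PR arrays, so as far as the ceiling goes these differences are lower limits, except that of Pde6g against the CH. There a CH spot was saturated as well, and no limit can be given. Since the ratio is Cy5 over Cy3, the Cy5 difference falls short of the ratio difference by the size of the Cy3 difference. Among the genes with no saturated spot, this part was 1.03 for Cngb1, 0.57 for Pde6b and 0.14 for Slc24a1. What lowered the Cy3 signal was not tested.

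**Figure D2:**
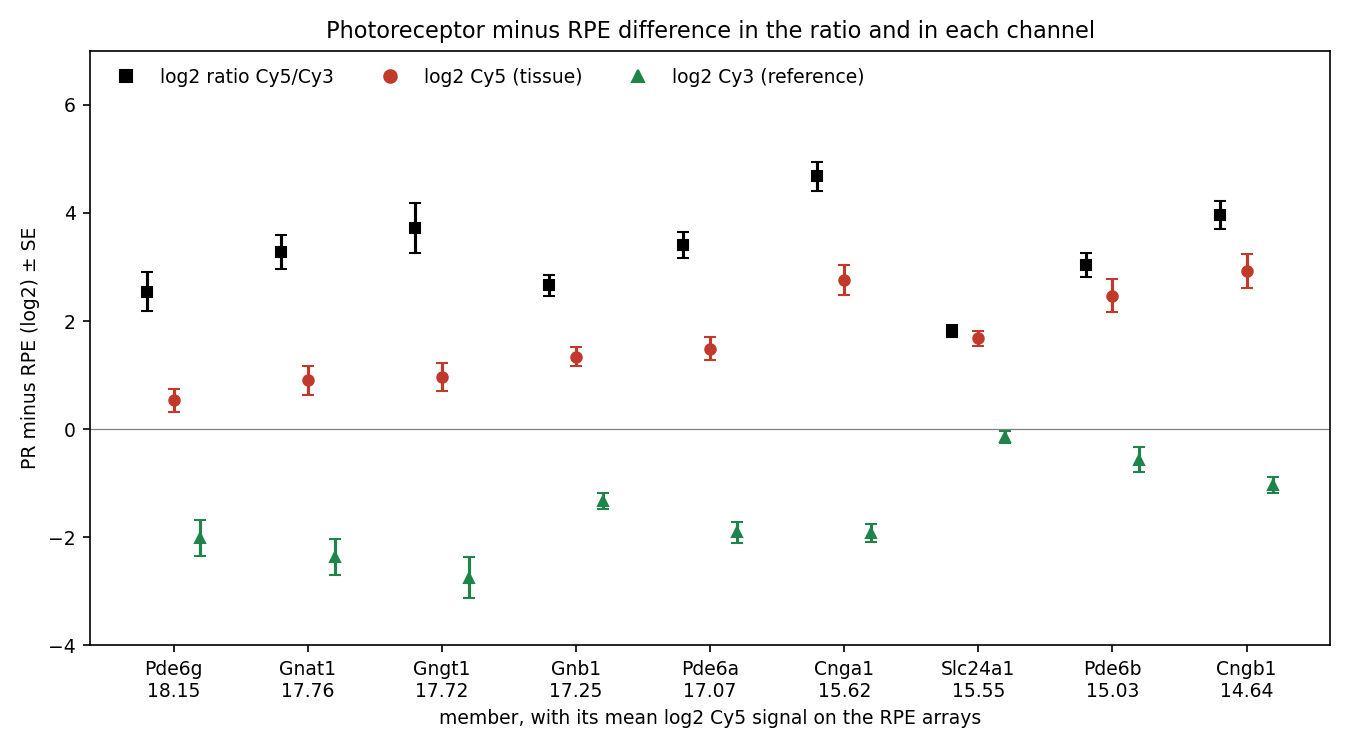
Difference between photoreceptor and RPE arrays (log2, with its SE from limma) for the 9 cascade genes, as the Cy5/Cy3 ratio, in Cy5 (tissue) alone and in Cy3 (reference) alone. Genes are ordered by their mean log2 Cy5 signal on the RPE arrays, brightest first. As far as the ceiling goes, the Cy5 differences of Pde6g (0.53), Gnat1 and Gngt1 are lower limits, as their photoreceptor spots are saturated on all arrays. Those of Gnb1, Pde6a and Cnga1 include 1 saturated spot. Cy3 is lower on the photoreceptor arrays for these genes, while for Slc24a1 nearly all of the difference is in Cy5.

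At their reported probes, chosen as the brightest, the cascade genes were also among the bright probes of the RPE and the CH. Ranked by normalized Cy5 over all probes of an array, Pde6g lay at percentile 99.7 to 99.8 in the RPE and 99.4 to 99.8 in the CH, and Gnat1 at 99.4 to 99.6 and 98.4 to 99.5. Cngb1, the lowest of the 9 in these tissues, lay at 89.6 to 92.5 in the RPE and 84.7 to 91.1 in the CH. The second, dim Cngb1 probe lay at 55.1 to 62.0 and 52.0 to 59.6. All 11 probes were well above background on all 9 arrays. Probe signals also depend on the probe, so these percentiles do not compare one gene with another.

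Between RPE and CH no cascade gene was called, where 0.179% of all genes were called higher in the RPE and 1.75% lower. All 9 differences were nevertheless above 0, with a median of 0.62 on the log2 scale against 0.03 over all genes, of which 55.2% were above 0. Slc24a1 had the largest difference, 1.21 ± 0.11 (2.31-fold, adjusted p = 0.000163). Its adjusted p passed the threshold and its fold change fell short of 2.5. In Cy5 alone the difference was 1.13 ± 0.14 (adjusted p = 0.00313). The next largest was that of Pde6g (0.76 ± 0.36, adjusted p = 0.17), and the other 7 ran from 0.36 ± 0.26 for Cngb1 to 0.71 ± 0.24 for Pde6a, with adjusted p of 0.0475 for Gnb1, 0.0489 for Pde6b and more for the others. All RPE arrays were above all CH arrays for 2 of the 9, Slc24a1 and Pde6b, where 19.9% of all genes had this order.

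The small differences of the other genes followed single arrays. All 9 genes were highest on RPE array 1 and lowest on RPE array 2 among the RPE arrays, and 8 of 9 were lowest on CH array 1 and highest on CH array 3 among the CH arrays. The exception was Slc24a1, lowest on CH array 2 and highest on CH array 1. The mean log2 ratio over the 9 genes was 0.79, -0.17 and 0.26 on RPE arrays 1 to 3, -0.76, -0.36 and 0.02 on CH arrays 1 to 3, and 3.52, 3.51 and 3.55 on PR arrays 1 to 3. The rod markers moved with them: their mean log2 ratio was 0.50, -0.39 and -0.19 in the RPE and -1.08, -0.48 and -0.16 in the CH.

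The arrays lay on 3 slides, and tissues were not spread evenly over them: slide 2 held RPE and CH arrays 1 and 3, slide 3 held array 2 of each tissue, and slide 1 held PR arrays 1 and 3 alone. Within slide 2 the RPE minus CH difference was between 0.58 and 1.20 for the 9 genes, with a median of 0.90. Within slide 3 it had a median of 0.06. There 8 genes lay between -0.09 (Gngt1) and 0.23 (Pde6a), and Slc24a1 was at 1.23. Slc24a1 was therefore as much higher in the RPE on slide 3 as on slide 2 (1.20), while the other 8 lay at 0.58 or above on slide 2. The contrast rests on RPE array 2, the only RPE array of slide 3, which stood apart in its share of probes above background. With that array left out, the RPE minus CH difference was 1.27 for Slc24a1 and 1.21 for Pde6g. The others then ran from 0.52 (Cngb1) to 0.96 (Gngt1). The RPE markers also held apart between the tissues on every array, as given above, while the rod markers overlapped, and the part of either cell type in the Slc24a1 signal was not tested. For PR against RPE, slide 3 gave differences between 2.01 (Slc24a1) and 4.82, with a median of 3.76, and for PR against CH between 3.15 and 4.88.

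**Figure D3:**
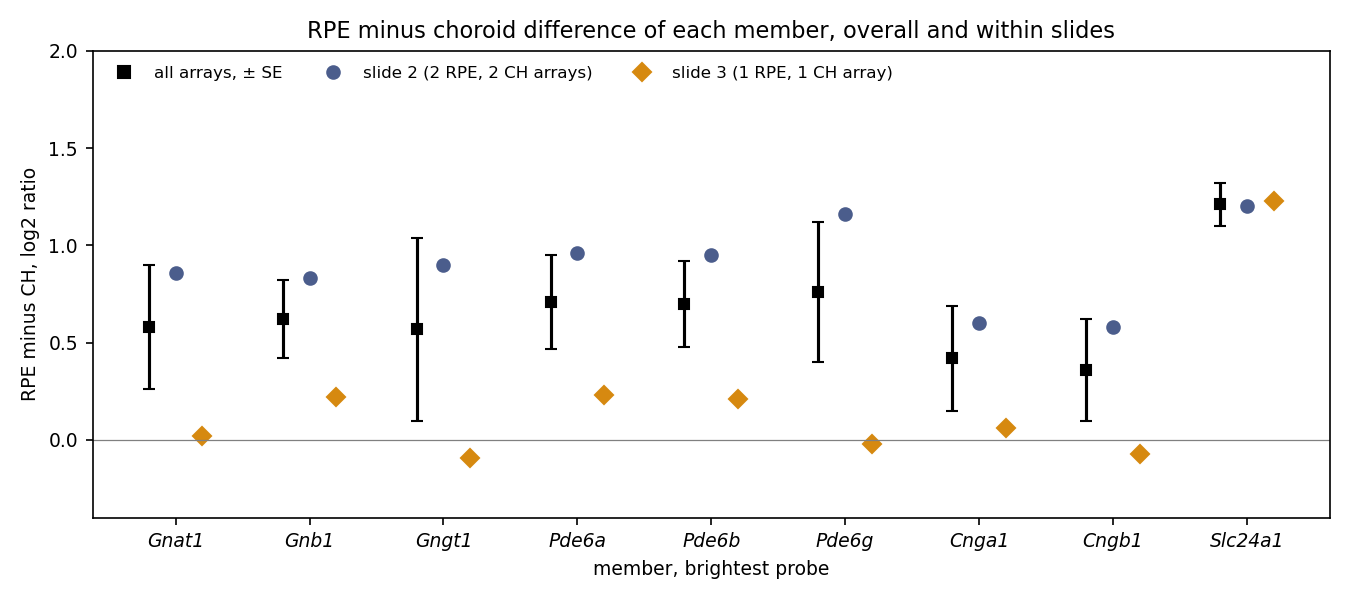
RPE minus choroid difference in log2 ratio for the 9 cascade genes, from all arrays (squares, with the SE from limma) and within each slide that holds both tissues (circles, slide 2 with 2 arrays of each; diamonds, slide 3 with 1 of each). Slc24a1 stays between 1.20 and 1.23 throughout, whereas the other 8 genes lie at 0.58 or above on slide 2 and at 0.23 or below on slide 3. The RPE array of slide 3 is RPE array 2, which stood apart in its share of probes above background.

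Genes that work next to the cascade were mostly higher in the PR too. The list held 23 other phototransduction genes and 2 general G protein beta subunits. Between PR and RPE 21 of these 25 were called higher in the PR, 2 lower (Rgs9, whose probes disagree, and Gnb2) and 2 neither, where 5.25% of all genes were called higher and 10.9% lower. Against the CH the counts were 22, 2 and 1, where 6.1% of all genes were called higher and 12.7% lower. Between RPE and CH no gene of the list was called. Among the genes that shut the response off, Grk1, the kinase of the receptor, was 3.18 ± 0.22 higher on the log2 scale than in the RPE (9.09-fold, adjusted p = 1.45e-06). Sag, rod arrestin, had only saturated spots in the PR, and its limit over the RPE, taken as for Gnat1, was at least 2.65-fold. Rgs9bp and Gnb5, partners of Rgs9 in the complex that speeds up GTP hydrolysis by transducin, were 3.42 ± 0.21 and 2.62 ± 0.17 higher. A second Rgs9bp probe was not called (0.49 ± 0.24 over the RPE, adjusted p = 0.114, and 0.92 ± 0.24 over the CH).

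Rgs9 itself was the exception of this group. At its brightest probe it was lower in the PR, with a mean log2 ratio of -2.79 against 1.67 in the RPE and 0.90 in the CH, a difference of -4.46 ± 0.21 from the RPE (adjusted p = 1.25e-07). A second probe that overlaps the first agreed (-4.18 ± 0.27). The remaining one, designed on another transcript record of the gene, was instead higher in the PR. Its difference over the RPE was 1.20 ± 0.12, below the fold change needed for a call, and over the CH 1.67 ± 0.12, which was called. The direction for Rgs9 is therefore uncertain.

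Calcium feedback speeds the recovery through guanylate cyclases, their activators and recoverin, a calcium sensor that acts on the receptor kinase. Of its 5 genes 4 were called higher in the PR than in RPE: Rcvrn (recoverin, 2.60 ± 0.22), Guca1a (guanylate cyclase activator, 3.07 ± 0.31), Guca1b (2.62 ± 0.21) and Gucy2e (retinal guanylate cyclase, 1.75 ± 0.17). The Guca1a spot of PR array 3 carried an outlier mark, so that its value rests on 2 PR arrays, both saturated. Gucy2f was 1.31 ± 0.17 higher, just under the fold change needed. All 5 chaperones and trafficking partners were called in both comparisons. They include Aipl1, which helps to assemble the phosphodiesterase (1.57 ± 0.23 over the RPE), and Pde6d, which carries prenylated subunits (1.73 ± 0.10). Pdc and Unc119 were saturated on all 3 PR arrays, so their differences are capped. Unc119 was saturated on 2 RPE arrays as well, and no limit can be given for it over the RPE.

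All 8 cone counterparts of the cascade genes were called higher in the PR as well at their brightest probe, with a median difference over the RPE of 2.75 on the log2 scale. Pde6h, the cone counterpart of Pde6g, was 4.33 ± 0.26 higher, with 1 saturated PR spot. Gnat2, that of Gnat1, was 3.42 ± 0.19 higher, Cnga3, that of Cnga1, 3.20 ± 0.18, and Slc24a2, that of Slc24a1, 1.38 ± 0.10. For Slc24a2 the call rests on that probe, since its other 2 probes were not called (0.95 ± 0.16 and 0.46 ± 0.15 over the RPE). Of the 2 other beta subunits of G proteins, Gnb2 was lower in the PR (-2.86 ± 0.14 against the RPE, adjusted p = 1.37e-07), and Gnb4 was not called (-0.64 ± 0.19).

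**Figure D4:**
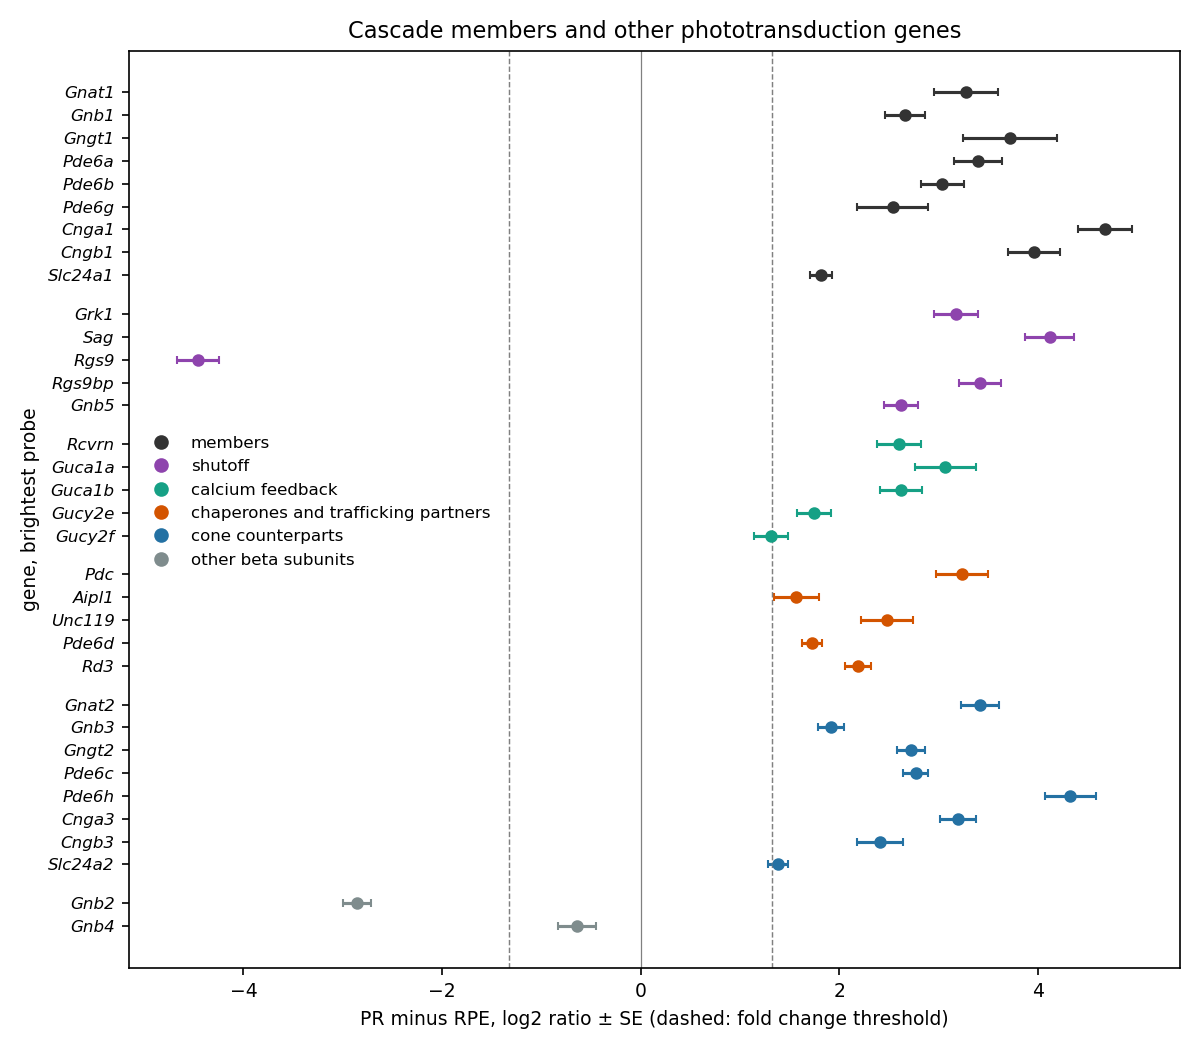
Photoreceptor minus RPE difference in log2 ratio, with its SE from limma, for the 9 cascade genes and the 25 other genes grouped by role, each at its brightest probe. Points to the right are higher in photoreceptors, and dashed lines mark the fold change needed for a call (2.5). Rgs9, Gnb2 and Gnb4 are the only points left of 0.

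Promoters of the cascade genes were looked up for 2 short motifs, since the genes rose together in the PR: TAATCC, the core bound by the photoreceptor factors CRX and OTX2, and TGCTGA, part of the site of the rod factor NRL, both read on either strand. RefSeq promoters of 300 bases (250 before and 50 after the transcript start, GRCm38.p6) were at hand for 6 of the 9 genes. TAATCC occurred in 3 of them, Gngt1, Cnga1 and Cngb1, and in 7.06% of all 32851 promoters in the table. TGCTGA occurred in 1, Pde6b, and in 19.5% of all. Gnb1 and Slc24a1 had neither in this window. The 250 bases before the start are given for the 3 genes with a motif nearest the start, with the motif letters in capitals. In Cngb1 the matches begin 58 and 25 bases before the start, in Gngt1 44 and in Pde6b 8.
Cngb1 promoter, chr8:95306586-95306835, minus strand: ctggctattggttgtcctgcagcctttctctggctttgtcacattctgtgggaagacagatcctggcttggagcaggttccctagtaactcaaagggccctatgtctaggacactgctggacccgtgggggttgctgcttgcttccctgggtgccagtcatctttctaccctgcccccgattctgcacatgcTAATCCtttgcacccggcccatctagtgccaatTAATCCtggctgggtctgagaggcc
Gngt1 promoter, chr6:3993758-3994007, plus strand: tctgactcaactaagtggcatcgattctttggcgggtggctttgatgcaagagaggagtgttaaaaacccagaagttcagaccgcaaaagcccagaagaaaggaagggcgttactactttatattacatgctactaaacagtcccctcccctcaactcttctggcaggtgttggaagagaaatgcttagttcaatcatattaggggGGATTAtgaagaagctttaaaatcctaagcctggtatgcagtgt
Pde6b promoter, chr5:108388123-108388372, plus strand: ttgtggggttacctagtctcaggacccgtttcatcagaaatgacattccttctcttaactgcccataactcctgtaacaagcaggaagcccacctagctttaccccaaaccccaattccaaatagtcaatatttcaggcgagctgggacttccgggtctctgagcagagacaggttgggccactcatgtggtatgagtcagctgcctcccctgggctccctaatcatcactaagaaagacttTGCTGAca
A match is a string of letters and not a measured binding site.

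Finally, genes outside these lists were ranked by how closely they followed the cascade over the 9 arrays, by Pearson correlation with the mean log2 ratio of the 9 genes without Gnb1, among 31128 genes with no saturated spot and no missing value. Among the 5 closest were A930003A15Rik (r = 0.9992), Rnls (0.9989), Grm8 (0.9989) and Acoxl (0.9984). Their PR minus RPE differences were 2.62, 1.11, 2.44 and 2.53 on the log2 scale. The correlations are a description, as the arrays fall into a PR cluster and the rest. Of the cascade genes, most of which are part of that mean, Pde6a followed the mean most closely (0.9991) and Slc24a1 least (0.9576).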

How the data were processed

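The authors deposited Agilent Feature Extraction (version 9.5.3.1) output for 9 dual-colour arrays, on which mean signals and local backgrounds are scanned intensity values. The log ratio deposited with them is on a log10 scale, and the authors' series table holds log2 values that follow the Cy5 channel, with normalization not given in the sources used here and no value for some spots (all 3 PR arrays at Gnat1, for example). Both served only as alternatives.

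Background was corrected with normexp (offset 50), ratios were normalized within arrays by loess, and the 228 to 586 spots per array with an outlier mark were left out. Spots of a probe were averaged, giving 39429 probes. Tissue means were fitted over all 9 arrays with limma 3.58.1 in R 4.3.3, with Benjamini-Hochberg adjustment over all probes. The thresholds for a call were those of the study (fold change 2.5, adjusted p 0.01). Single-channel values are log2 signals after loess and Aquantile, steps that use both channels. Tables and figures were made with Python 3.11.15 and pandas 2.3.3.

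Tested on simulated data with the spread of the PR and RPE arrays (39429 probes), the fit called 95 of 100 probes changed by 2 on the log2 scale, 99 of 100 changed by 3, and 0 unchanged probes.

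Positions of probes are those of the files (mm9), and promoters come from RefSeq (GRCm38.p6). Named are all 9 genes with each probe, the genes of the pathway list, and the 5 genes most alike in pattern. Some of the genes this covers are not reported here and are left out of the counts over the lists. Members and lists were chosen with earlier results of these data known. Replicates were separate eyes, and their number limits the precision. Settings tried are given in the closing section.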

Additional observations from a re-analysis of the deposited data

How the results depend on the processing

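The 9 calls of PR over RPE and of PR over CH became 4 each with the authors' series table, where 5 of the 9 genes had a value in all 3 tissues, and 3 each when only the genes without a saturated spot were counted. Fewer genes could be counted in both. In the series table Pde6a lost its calls (1.56, adjusted p = 0.0642, and 1.92, adjusted p = 0.0161). In the Cy5 channel alone 6 of 9 were called in each comparison, and the calls of Gnat1, Gngt1 and Pde6g were lost. With a fold change above 2, 1 gene, Slc24a1, was called between RPE and CH. Across the other settings (no background correction, normexp offset 16, median centring, the Feature Extraction log ratio, outlier spots kept, dim probes left out, a fit of both tissues only, slide as a fixed or random block, eBayes with trend and robust, each array left out, an adjusted p below 0.05, any probe of a gene, the mean of its probes) the counts remained 9, 9 and 0. Leaving out each array in turn gave these counts each time. The RPE minus CH difference of Slc24a1 ran from 1.01 to 1.27 over all settings (adjusted p 0.000106 to 0.0142). Within slide 3 the RPE minus CH difference had the opposite sign for Gngt1 (-0.09), Pde6g (-0.02) and Cngb1 (-0.07), and the cause was not tested; this within-slide comparison was chosen after seeing the data. Whether replicate numbers pair the samples could not be settled. Same-numbered arrays had correlations between -0.078 and 0.286, and differently numbered ones between -0.312 and 0.246. The arrays numbered 2 also shared a slide. With the replicate block the counts were 9, 9 and 0 as well. The upper end of the scale is limited by saturation, so that the ratios of Gnat1, Gngt1 and Pde6g have no upper limit.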
